A study of Rattus norvegicus with 6 samples.

Results

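The genes described here are 29 targets of the transcription factor p53, measured in the liver of rats given the chemical ADBAQ and in rats given vehicle. They were taken as a list of gene symbols, chosen with earlier results of these data known. Every probe on the array whose RefSeq accession belonged to 1 of these genes was used. Of the 29 genes, 25 had a probe, out of 15284 named genes on the array, and these 25 had 46 probes in all. Tnfrsf10b, Eda2r, Ddb2 and Sesn1 had no named probe. The single probe of Pmaip1 stayed below the scanner software's background test on all 6 arrays, which left 24 genes to test.

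Liver RNA came from 6 male Sprague-Dawley rats, bought at 5 weeks of age, with 1 single-colour Agilent array per rat. In 3 rats ADBAQ (1-amino-2,4-dibromoanthraquinone, an intermediate in the making of anthraquinone dyes) was dosed at 1000 mg/kg/day, while 3 control rats received vehicle alone. The labels disagree on the vehicle, which is purified water in the sample characteristics and corn oil in the protocol. They also disagree on the duration, which is 28 days in the design text and 9 weeks in the protocol. The question here is how the p53 targets stood in treated against control livers. All rats shared the strain, the basal diet and the housing, and no genetic change is named in the labels.

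The p53 protein is held at a low level by Mdm2, a ubiquitin ligase that marks it for destruction and whose own gene p53 turns on, which closes a feedback loop. DNA damage and other stresses stabilise p53. It then binds near a set of genes that stop the cell cycle, start cell death, repair DNA or adjust metabolism. In liver, p53 targets are among the genes used to tell chemicals that damage DNA from those that do not.

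Between 62.1% and 65.3% of the 61657 probes were well above background on an array, and no spot was saturated. All 24 tested genes were well above background on all 6 arrays with the probe used. The 3 vehicle arrays lay on 1 slide scanned on 1 day and the 3 ADBAQ arrays on another slide scanned on another day, so slide, scan day and treatment cannot be told apart. The number of arrays limits the precision. Levels are given as log2 of a probe's processed signal over its array's 75th percentile, so a gene at 0 had the signal of that percentile. Differences are ADBAQ minus vehicle on that log2 scale with the standard error (SE) of limma, for n = 3 rats per group. A gene was called at a Benjamini-Hochberg adjusted p under 0.05 over all 38695 probes tested. In whole liver, fewer cells of a type and less RNA per cell cannot be told apart.

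Of the 24 genes tested, 12 rose in ADBAQ and 1 fell. Over all 11344 genes tested, 9.05% were called higher and 11.3% lower, or 20.4% in either direction. The median difference of the p53 targets was 0.55, against -0.04 for all genes. That gap was not tested, since the genes were chosen with earlier results of these data known. The ADBAQ values of 18 genes lay wholly above their vehicle values and those of 1 gene wholly below, where 21.2% of all genes lay wholly above and 25.1% wholly below, 46.4% in all. The 12 that rose were Ddit4, Gadd45a, Mdm2, Ccng1, Rrm2b, Phlda3, Btg2, Fas, Tp53inp1, Perp, Tigar and Zmat3, and the 1 that fell was Ei24. Taken rat by rat, the median of the 24 genes against their vehicle means was -0.02, -0.04 and 0.07 in the vehicle rats and 0.58, 0.53 and 0.63 in the ADBAQ rats. On this measure all 3 treated rats lay above all 3 controls. It restates the median difference of the list by rat and is not a separate test.

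**Figure D1:**
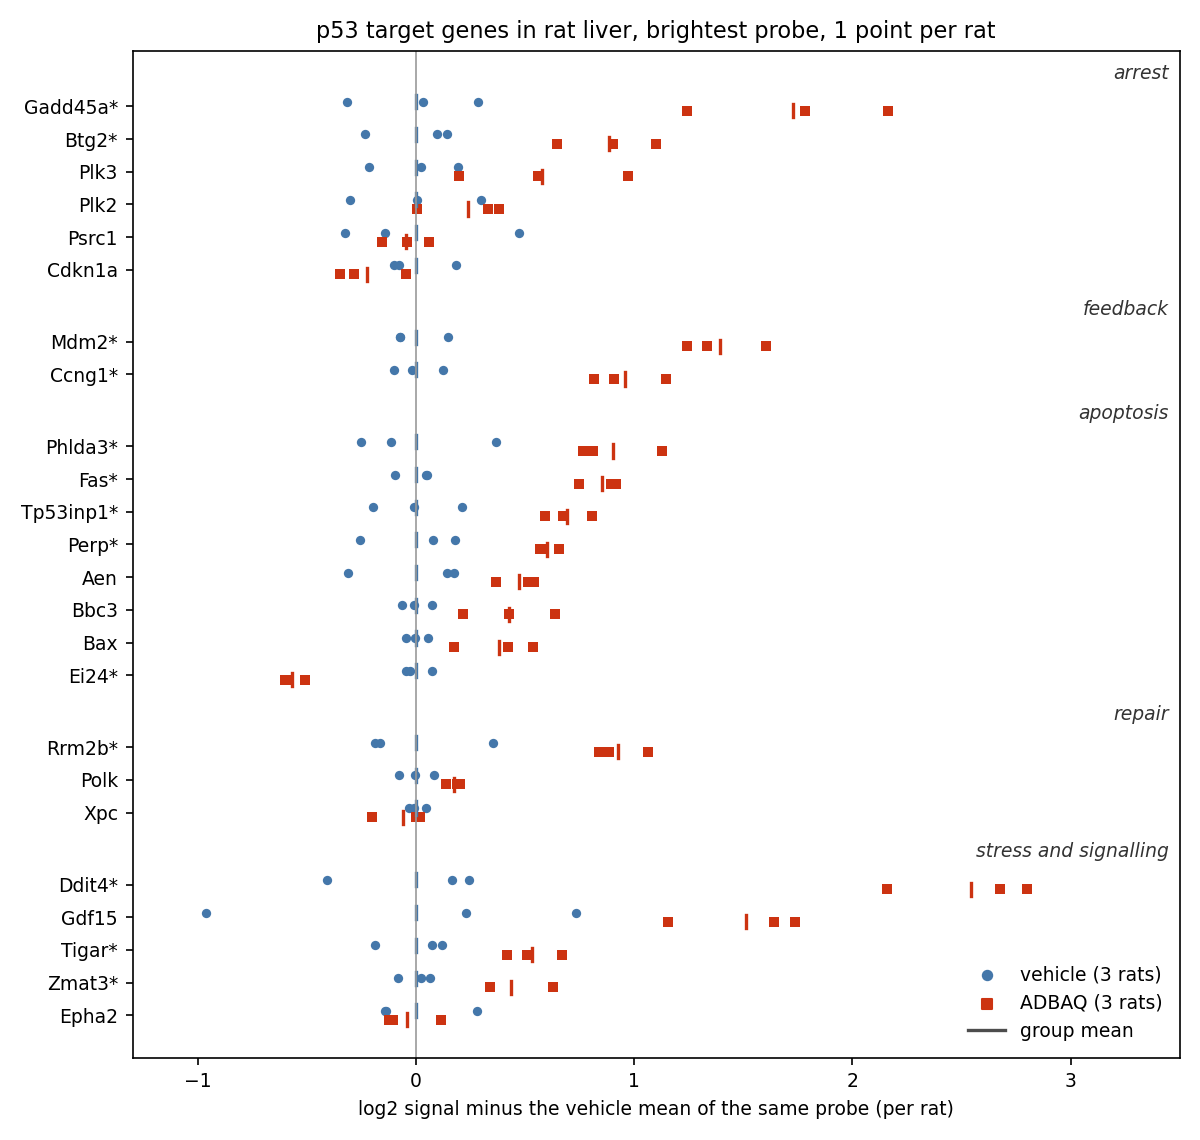
Log2 signal of each tested p53 target in each rat, as the difference from the vehicle mean of the same probe, grouped by role. Circles are the 3 vehicle rats, squares the 3 ADBAQ rats, short lines the group means, and an asterisk marks an adjusted p under 0.05. The 12 genes called higher have all 3 squares to the right of all 3 circles, Ei24 has them to the left, and Cdkn1a, Psrc1, Plk2, Xpc and Epha2 overlap.

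The count fell when any 1 array was left out, as did that of all genes called higher, from 1027 to between 400 and 704. The median difference of the p53 targets stayed between 0.51 and 0.59. Of the p53 targets, 8 were called higher without vehicle replicate 1 or 3 and 10 without vehicle replicate 2. Without ADBAQ replicate 1 or 2 it was 5, and without ADBAQ replicate 3 it was 6. The fall of Ei24 was called each time. With 1 array left out in turn, 6 genes were called all 6 times: Ddit4, Gadd45a, Mdm2, Ccng1, Fas and, as the one that fell, Ei24.

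The 2 feedback genes both rose, beside 9.05% of all genes called higher. Their median difference was 1.17, the highest of the 5 roles. Mdm2 (RefSeq NM_001108099), the ligase of p53, lay at 0.69, 0.69 and 0.91 in the 3 vehicle rats and at 2.37, 2.10 and 2.01 in the 3 ADBAQ rats. It rose by 1.39 ± 0.13 (adjusted p = 0.00347), which is 2.63-fold. All ADBAQ rats were above all vehicle rats by a gap larger than the range within either group. Its second, dimmer probe rose by 1.21 ± 0.11 (adjusted p = 0.0033 by limma). Ccng1 (RefSeq NM_012923), cyclin G1, which brings a phosphatase to Mdm2, lay at 0.72, 0.63 and 0.86 in vehicle and at 1.88, 1.55 and 1.65 in ADBAQ. It rose by 0.96 ± 0.12 (adjusted p = 0.00779), or 1.94-fold. On its second probe the values were -0.66, -0.83 and -0.40 in vehicle and 1.08, 0.72 and 1.41 in ADBAQ, a rise of 1.70 ± 0.20. Both probes of Ccng1 separated the groups in every rat, and they differed in size by 0.74.

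Of the 6 genes placed in the cell cycle arrest group, 2 rose and none fell, beside 9.05% and 11.3% of all genes. Their median difference was 0.41 (limma, unadjusted p under 0.05 for 3 higher and none lower). Gadd45a (RefSeq NM_024127), a stress sensor that acts at the G2/M checkpoint, lay at 1.72, 1.47 and 1.12 in vehicle and at 3.60, 3.22 and 2.68 in ADBAQ. It rose by 1.73 ± 0.26 (adjusted p = 0.0114), or 3.32-fold, from a single probe. Btg2, an antiproliferative partner of the mRNA deadenylation machinery, lay at 0.94, 0.57 and 0.90 in vehicle and at 1.71, 1.90 and 1.45 in ADBAQ. It rose by 0.88 ± 0.16 (adjusted p = 0.0176), and its second probe rose by 0.87 ± 0.16. It was no longer called without ADBAQ replicate 1 (0.87, adjusted p = 0.0619) or 2 (0.80, adjusted p = 0.0587, from its second probe, which was the brighter on those 5 arrays). The polo-like kinase gene Plk3 was higher in all ADBAQ rats without passing the threshold (0.58 ± 0.22, adjusted p = 0.112). Its relative Plk2 (0.24 ± 0.18) and the spindle gene Psrc1 (-0.05 ± 0.21) overlapped between groups. Psrc1 was dim, with processed signals of 15.5 to 26.3.

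Cdkn1a (RefSeq NM_080782) encodes p21, the cyclin-dependent kinase inhibitor through which p53 halts cells in G1. Its brightest probe, which represents the gene here, lay at 5.81, 5.79 and 6.07 in vehicle and at 5.54, 5.84 and 5.60 in ADBAQ. The groups overlapped, and the difference of -0.23 ± 0.13 was not called (adjusted p = 0.25). The other 2 probes pointed up. One lay at 2.52, 3.68 and 3.66 in vehicle and at 4.29, 4.18 and 3.71 in ADBAQ, a difference of 0.77 ± 0.34 (adjusted p = 0.162). The other lay at -3.27, -2.32 and -2.20 in vehicle and at -1.35, -1.83 and -1.77 in ADBAQ, a difference of 0.95 ± 0.30 (adjusted p = 0.077). On both of these the ADBAQ rats lay above all vehicle rats, with vehicle replicate 1 lowest. Neither was called by limma. Within each array, both probes came closer to the brightest one in every ADBAQ rat than in any vehicle rat, by 1.00 and 1.18 on average (exact permutation test, two-sided p = 0.1 for each, the smallest that 3 against 3 allows). As the mean of its probes, Cdkn1a differed by 0.50, with no call (adjusted p = 0.174). The direction measured for Cdkn1a thus differed with the probe, and no probe was called.

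The stretch before the start of a gene is one place where p53 can bind, and 4 such stretches are shown for the arrest and feedback genes just described. They are the 250 bases before the gene start in RefSeq, assembly GRCr8, read along the gene's strand. The p53 decamer, the unit of its binding motif, was searched as 10 bases on both strands, which the pattern matches alike. It has 3 purines, then C, a pair of bases that are each A or T, and G, then 3 pyrimidines. A decamer pair was 2 of them, overlapping in no base and at most 13 bases apart, with the inner 4 bases intact and at most 1 mismatch in each. Capitals mark the decamer pair in Cdkn1a (chr20:7150682-7150931, plus strand) and Gadd45a (chr4:97486800-97487049, minus strand), and the single decamer in Ccng1 (chr10:25684877-25685126, minus strand), while Mdm2 (chr7:55200792-55201041, minus strand) held neither in this window.
Cdkn1a: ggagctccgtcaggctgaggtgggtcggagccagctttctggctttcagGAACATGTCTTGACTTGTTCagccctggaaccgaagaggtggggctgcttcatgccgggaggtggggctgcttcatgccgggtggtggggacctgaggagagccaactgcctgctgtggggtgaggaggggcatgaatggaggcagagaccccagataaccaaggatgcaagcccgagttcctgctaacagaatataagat
Gadd45a: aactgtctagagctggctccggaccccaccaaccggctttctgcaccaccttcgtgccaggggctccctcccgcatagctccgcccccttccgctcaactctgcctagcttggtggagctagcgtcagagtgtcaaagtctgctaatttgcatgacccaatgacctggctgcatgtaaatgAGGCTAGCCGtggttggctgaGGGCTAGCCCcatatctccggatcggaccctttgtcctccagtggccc
Ccng1: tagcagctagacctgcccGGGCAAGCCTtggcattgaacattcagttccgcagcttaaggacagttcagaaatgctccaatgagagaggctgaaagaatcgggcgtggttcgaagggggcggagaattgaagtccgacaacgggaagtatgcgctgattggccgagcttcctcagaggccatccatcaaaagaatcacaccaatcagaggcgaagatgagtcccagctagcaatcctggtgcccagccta
Mdm2: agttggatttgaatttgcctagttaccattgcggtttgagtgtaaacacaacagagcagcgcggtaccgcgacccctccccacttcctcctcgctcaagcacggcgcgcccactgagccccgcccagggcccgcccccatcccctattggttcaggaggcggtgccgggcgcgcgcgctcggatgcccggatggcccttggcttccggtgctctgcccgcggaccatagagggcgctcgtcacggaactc
In Cdkn1a the pair abuts, beginning 201 bases before the start, and in Gadd45a it is 11 bases apart and begins 69 bases before it. Each pair has 1 mismatch in all. Of the 22 genes on the list with a promoter in the table, 6 held a decamer and 2 a decamer pair, where 6.64% of all 33469 promoters of that length held a decamer and 1.02% a pair. Of the genes called higher, 9 had a promoter in the table and 2 of them (Gadd45a and Ccng1) held a decamer. Ei24, which fell, held one too. A match is a description of letters and not of binding.

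Of the 8 tested genes of the cell death group, 4 rose and 1 fell, beside 9.05% and 11.3% of all genes. Their median difference was 0.54. Fas, the death receptor, lay at 0.44, 0.29 and 0.44 in vehicle and at 1.31, 1.28 and 1.14 in ADBAQ. It rose by 0.85 ± 0.10 (adjusted p = 0.00552), or 1.80-fold, and all 3 ADBAQ rats lay above all 3 vehicle rats. A second probe rose by 1.15 ± 0.15 (adjusted p = 0.00864 by limma), while the dimmest probe overlapped between groups (0.53 ± 0.38, adjusted p = 0.357). On that dimmest probe 1 rat, ADBAQ replicate 2, lay at -3.31 and the other 2 at -4.59 and -4.37, against -4.14 to -4.93 in vehicle.

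Phlda3, which holds back the survival kinase Akt, lay at -0.87, -0.25 and -0.74 in vehicle and at 0.15, 0.19 and 0.51 in ADBAQ. It rose by 0.90 ± 0.19 (adjusted p = 0.0261). It stayed called without vehicle replicate 2 and in no other leave-out, where the differences ran from 0.78 to 0.97 and the highest adjusted p was 0.0783. Tp53inp1, a nuclear protein that promotes p53-driven death and autophagy, lay at 0.28, 0.09 and 0.50 in vehicle and at 0.89, 0.97 and 1.10 in ADBAQ. It rose by 0.69 ± 0.13 (adjusted p = 0.0194), which no longer passed when vehicle replicate 1 or an ADBAQ array was dropped (0.63 to 0.74, with adjusted p up to 0.0654). Perp, a membrane protein of desmosomes, lay at 4.53, 4.43 and 4.09 in vehicle and at 4.91, 4.93 and 5.00 in ADBAQ. It rose by 0.60 ± 0.13 (adjusted p = 0.0284) and by 0.79 ± 0.11 on its second probe. The brightest probe no longer passed when vehicle replicate 2 or an ADBAQ array was dropped (0.58 to 0.64, with adjusted p up to 0.0865).

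Neither tested gene of the mitochondrial death pathway was called. Bax, which permeabilises the outer mitochondrial membrane, lay at 0.39, 0.29 and 0.33 in vehicle and at 0.88, 0.51 and 0.76 in ADBAQ, a difference of 0.38 ± 0.12 that was not called (adjusted p = 0.0706). Bbc3, the BH3-only protein PUMA, was at 2.07, 2.13 and 2.21 in vehicle and at 2.35, 2.56 and 2.78 in ADBAQ (0.43 ± 0.13, adjusted p = 0.0649). In both genes the groups did not overlap in any rat. Each was called with normexp background correction (Bax adjusted p = 0.0227, Bbc3 adjusted p = 0.0174). Pmaip1, the BH3-only protein NOXA, had processed signals of 2.6 to 3.0 on all arrays, not well above background.

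Aen, an exonuclease of apoptotic cells, shows how the choice of probe sets a call. Its brightest probe lay at 3.60, 4.06 and 4.08 in vehicle and at 4.45, 4.42 and 4.28 in ADBAQ, a difference of 0.47 ± 0.15 (adjusted p = 0.0785). Its other 2 probes rose, both by 0.57 ± 0.12 (adjusted p = 0.0275 and 0.0273 by limma). All 3 probes had every ADBAQ rat above every vehicle rat. As the mean of its probes the gene was called (0.54, adjusted p = 0.0315).

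Ei24, a membrane protein of the endoplasmic reticulum with a part in autophagy, ran the other way. It lay at 1.56, 1.46 and 1.44 in vehicle and at 0.89, 0.89 and 0.98 in ADBAQ. It fell by 0.57 ± 0.09 (adjusted p = 0.0110), relative to the array's 75th percentile, with both groups narrow. Scaled to the spike-in controls, which moved the median of all genes to 0.72, Ei24 differed by 0.19 with no call (adjusted p = 0.142), so its fall holds relative to the 75th percentile and not relative to the spike-in controls.

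Of the 3 tested repair genes, 1 rose and none fell, beside 9.05% and 11.3% of all genes. Their median difference was 0.17 (limma, unadjusted p under 0.05 for 1 higher and none lower). Rrm2b, the p53-induced subunit of ribonucleotide reductase that supplies DNA precursors, lay at -4.41, -3.86 and -4.38 in vehicle and at -3.16, -3.33 and -3.38 in ADBAQ. It rose by 0.93 ± 0.17 (adjusted p = 0.0177), or 1.90-fold. The probe was dim, with processed signals of 20.8 to 31.7 in vehicle and 56.6 to 72.1 in ADBAQ, and with normexp background correction, whose offset of 50 damps dim probes, the difference was 0.10 with no call (adjusted p = 0.311). It also failed to pass when vehicle replicate 3 or an ADBAQ array was dropped (0.84 to 0.97, with adjusted p up to 0.0636). Xpc, which finds damaged bases for nucleotide excision repair, lay at 0.43, 0.46 and 0.51 in vehicle and at 0.49, 0.27 and 0.47 in ADBAQ. It differed by -0.06 ± 0.10 on its brightest probe and by 0.11 ± 0.11 on the other, with overlapping groups on both. Polk, a translesion DNA polymerase, was higher in every ADBAQ rat but by only 0.17 ± 0.09 (adjusted p = 0.199).

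Of the 5 tested genes of stress and signalling, 3 rose and none fell, beside 9.05% and 11.3% of all genes. Their median difference was 0.53 (limma, unadjusted p under 0.05 for 4 higher and none lower). Ddit4, the mTORC1 inhibitor also called REDD1, had the largest difference on the list. It lay at 0.48, 0.40 and -0.17 in vehicle and at 2.91, 3.03 and 2.39 in ADBAQ, a rise of 2.54 ± 0.24 (adjusted p = 0.0035), or 5.84-fold. Its other 2 probes rose by 2.39 ± 0.17 and 2.47 ± 0.21, so all 3 probes gave a rise of more than 2 log2 units. Tigar, a phosphatase that lowers glycolytic flux, lay at -0.08, -0.13 and -0.39 in vehicle and at 0.47, 0.21 and 0.31 in ADBAQ. It rose by 0.53 ± 0.12 (adjusted p = 0.0337), and its second, dimmer probe overlapped between groups (0.60 ± 0.26, adjusted p = 0.157). Zmat3, an RNA-binding zinc finger protein, lay at 0.67, 0.56 and 0.71 in vehicle and at 0.98, 0.98 and 1.27 in ADBAQ (0.43 ± 0.11, adjusted p = 0.0462). The calls of Tigar and Zmat3 were the most fragile, each lost without any 1 of the 6 arrays (Tigar 0.44 to 0.59, highest adjusted p = 0.103, and Zmat3 0.34 to 0.48, highest adjusted p = 0.116).

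Gdf15, a secreted stress hormone, was not called although only Ddit4 and Gadd45a had larger differences. It lay at -3.16, -1.47 and -1.97 in vehicle and at -0.56, -0.46 and -1.05 in ADBAQ (1.51 ± 0.43, adjusted p = 0.0575). Every ADBAQ rat was higher, and vehicle replicate 1 was more than 1 log2 unit below the other vehicle rats. Its second probe gave the same picture (1.32 ± 0.49, adjusted p = 0.110). The gene was called without vehicle replicate 2 (1.88, adjusted p = 0.0444) and with normexp background correction (1.08, adjusted p = 0.0134). Epha2, an ephrin receptor kinase, differed by -0.04 ± 0.15 and 0.06 ± 0.32 on its 2 probes, with overlapping groups.

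Several probes were tested for 14 of the 24 genes. In 11 of them all probes had the same sign, and the exceptions were Cdkn1a, Xpc and Epha2, none with a called probe. All probes rose in 5 genes (Btg2, Mdm2, Ccng1, Perp and Ddit4). The probes differed in their call in 3 genes (Fas, Aen and Tigar). Counting probes rather than genes, 21 of 42 were called higher and 1 lower, against 8.37% and 10% of all probes tested. Each further probe was set against the brightest one of its gene, which gave 18 pairs. In 12 pairs the differences agreed within 0.25, and in 4 pairs (2 of Cdkn1a, 1 each of Ccng1 and Fas) the signed difference between probes within an array did not overlap between the groups. The exact test cannot go below p = 0.1 for any of them, or 0.4 after adjustment over the 18 pairs. The widest gap, 1.18, was that of Cdkn1a.

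**Figure D2:**
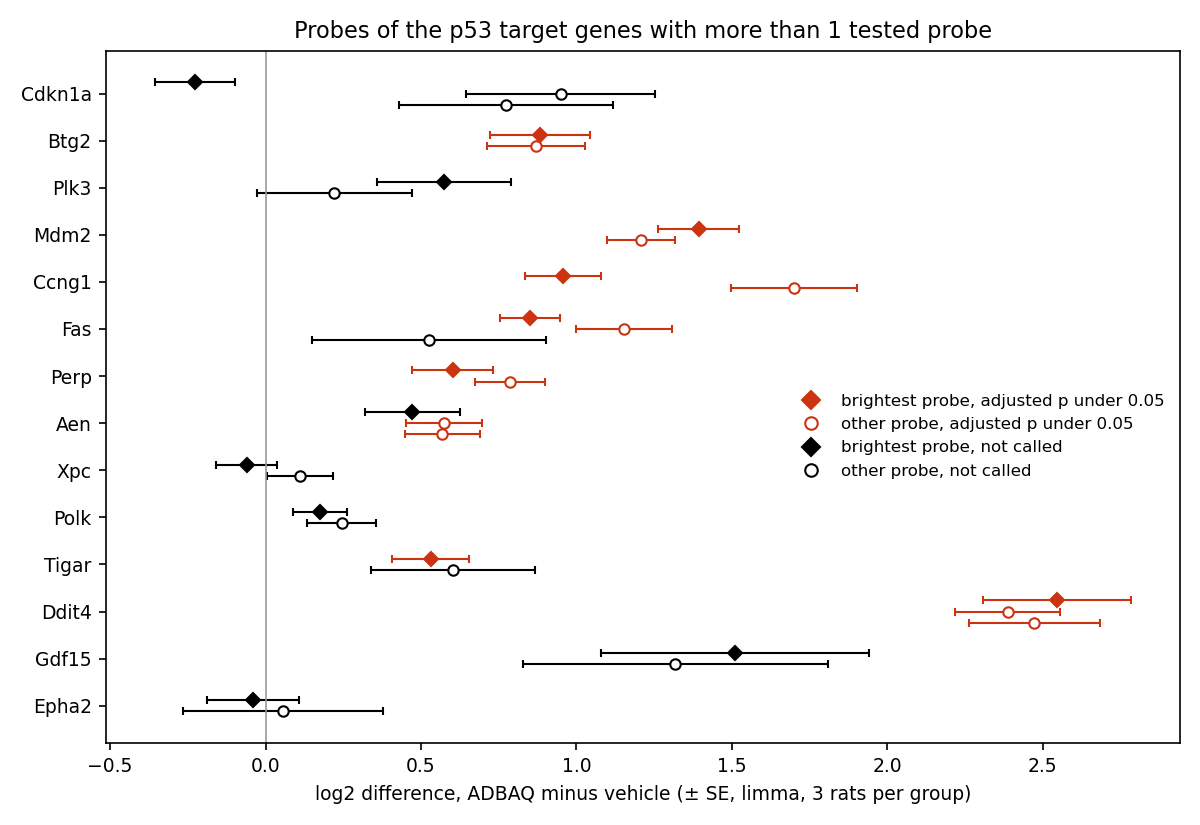
Log2 difference between ADBAQ and vehicle, with the SE of limma, for every tested probe of the 14 p53 targets that had more than 1. Diamonds are the brightest probe of a gene and circles its other probes, in red where the adjusted p was under 0.05. The probes of Ddit4 lie between 2.39 and 2.54, those of Ccng1 at 0.96 and 1.70, and those of Cdkn1a on both sides of 0.

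Other genes of the p53 pathway were counted on the same scale. Of 37 tested genes on a second list of p53 targets, drawn up from textbook knowledge, 1 rose and 5 fell, at a median difference of 0.00, where 9.05% of all genes were called higher and 11.3% lower. The share called higher was below that of all genes, and the share called lower was near it. The ADBAQ values of 4 lay wholly above vehicle and of 12 wholly below, beside 21.2% and 25.1% of all genes. Neither these gaps nor the difference from the 29 genes was tested. Scaled to the spike-in controls, 28 of the 37 were called higher and 1 lower, at a median of 0.76, where 78.8% of all genes were called higher and 1.67% lower. Among those that fell were the receptor gene Notch1 (-2.01 ± 0.36), the growth factor carrier Igfbp3 (-1.19 ± 0.22), the antiproliferative gene Btg1 (-1.14 ± 0.21) and the cell cycle repressor E2f7 (-0.83 ± 0.16). Only the brighter of the 2 probes of Notch1 was called, and the other differed by -0.22. Igfbp3, Btg1 and E2f7 were not called when scaled to the spike-in controls (-0.43, -0.39 and -0.08). The fifth that fell, Fdxr, a mitochondrial reductase named after its values were seen, differed by -0.54 ± 0.08 (adjusted p = 0.0110), with both probes called. It passed in all 6 leave-outs (adjusted p up to 0.0440) but not on the spike-in scale, where it differed by 0.21. The other 4 each failed in some leave-outs. Notch1 failed without vehicle replicate 3 (-1.90) or ADBAQ replicate 3 (-1.93), and Igfbp3 without vehicle replicate 2 (-1.13) or ADBAQ replicate 1 (-1.25), 2 (-1.22) or 3 (-1.10). Btg1 failed without vehicle replicate 3 (-1.17), ADBAQ replicate 1 (-1.05) or 2 (-1.13), and E2f7 without vehicle replicate 3 (-0.72), ADBAQ replicate 1 (-0.72) or 3 (-0.81). Btg1 fell and its relative Btg2 rose on the scale of the 75th percentile.

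Of 16 tested regulators and relatives of p53, 3 rose and 1 fell, beside 9.05% and 11.3% of all genes. Their median difference was -0.03. Mdm4, the second inhibitor of p53, rose by 0.49 ± 0.10 (adjusted p = 0.0253) and passed in none of the 6 leave-outs (adjusted p up to 0.0705). The checkpoint kinase gene Chek1 rose by 1.00 ± 0.22 (adjusted p = 0.0278), and failed when vehicle replicate 2 or an ADBAQ array was dropped (adjusted p up to 0.0854). The p53 relative Tp63 rose by 1.02 ± 0.19 (adjusted p = 0.0196), and failed when vehicle replicate 2, vehicle replicate 3 or ADBAQ replicate 3 was dropped (adjusted p up to 0.0647). The other relative, Tp73, had no ADBAQ array well above background and was at least 3.63-fold lower. It entered the test only through its vehicle signal, so its adjusted p of 0.00874 rests on ADBAQ signals below background. These calls are from limma, and with scaling to the spike-in controls 14 of the 16 were called higher and 1 lower, beside 78.8% of all genes called higher.

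**Figure D3:**
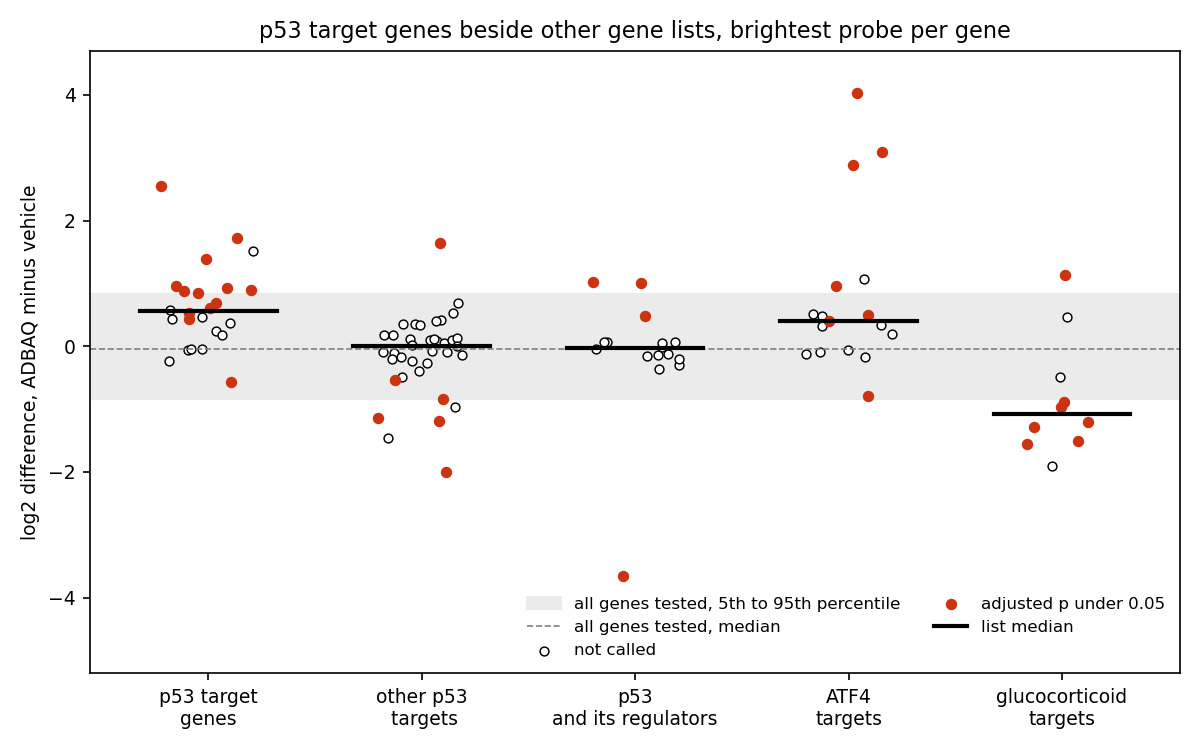
Log2 difference between ADBAQ and vehicle for the p53 targets and 4 other gene lists, 1 point per gene, red where the adjusted p was under 0.05, with a bar at each list's median. The grey band holds the middle 90% of all genes tested. The p53 targets have a median of 0.55, the second list of p53 targets 0.00, the p53 regulators -0.03, the ATF4 targets 0.40 and the glucocorticoid targets -1.08.

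Some of the genes are also switched on by factors other than p53. Ddit4, Gadd45a and Gdf15 answer to ATF4, the factor of the integrated stress response, and Ddit4 to glucocorticoids. Whether these factors had a part in the values of these genes was not tested. Of 17 tested ATF4 targets, 6 rose and 1 fell, beside 9.05% and 11.3% of all genes. Their median difference was 0.40. Trib3, a pseudokinase (4.03 ± 0.34), and Atf3, a stress transcription factor (3.10 ± 0.34), stayed called with each array left out. Fgf21, a hormone, rose by 2.88 ± 0.63 and the amino acid carrier gene Slc3a2 by 0.97 ± 0.19. Both failed when vehicle replicate 3 or an ADBAQ array was dropped, with adjusted p up to 0.0909 for Fgf21 and 0.068 for Slc3a2. Cth, an enzyme of cysteine synthesis, fell by 0.79 ± 0.13, and differed by -0.03 on the spike-in scale, where 14 of the 17 ATF4 targets, like 78.8% of all genes, were called higher and none lower. Of 10 tested glucocorticoid targets, 1 rose and 6 fell, beside the same 9.05% and 11.3% of all genes. Their median difference was -1.08 (-0.33 on the spike-in scale, with 2 higher and 4 lower, beside 78.8% and 1.67% of all genes). Per1 (-1.56 ± 0.25), Dusp1 (-1.50 ± 0.14), Klf9 (-1.29 ± 0.22) and Tsc22d3 (-1.20 ± 0.15) fell, though the second probe of Per1 differed by -0.51 with no call, and Tat, tyrosine aminotransferase, rose by 1.14 ± 0.15. Klf9 failed when ADBAQ replicate 1 or 3 was dropped (adjusted p up to 0.0509).

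Markers of other cells are set beside the shares of all genes called, 9.05% higher and 11.3% lower, and on the spike-in scale 78.8% higher and 1.67% lower. Of the cholangiocyte markers 3 of 7 tested rose and 1 fell, and their summed level, in multiples of the 75th percentile, was 2.03 to 2.31 in vehicle and 3.04 to 4.47 in ADBAQ. Their median difference of 0.82 was 0.38 with normexp background correction, where 2 rose and 1 fell. Of the erythroid markers 2 of 6 rose (2.02 to 3.07 against 4.81 to 8.85), with a median difference of 1.00 that was 0.08 with normexp background correction, and of the neutrophil markers 1 of 5 (1.25 to 1.81 against 2.62 to 3.20). No macrophage marker of 10 was called (limma, none at an unadjusted p under 0.05), at 117 to 144 against 124 to 141, although all 10 were called higher on the spike-in scale. One marker each fell among 6 of endothelial cells, 9 of T and NK cells and 5 of B cells, or 3 of 20 in all, near the share of all genes called lower, and none was called lower on the spike-in scale. No stellate cell marker of 9 was called (limma, 2 lower at an unadjusted p under 0.05), and 8 were called higher on the spike-in scale. All 10 hepatocyte markers were well above background on all 6 arrays, and 7 fell, from a summed level of 7035 to 7528 in vehicle to 5009 to 5393 in ADBAQ. When scaled to the spike-in controls, 4 hepatocyte markers were higher and 2 lower. The part of these shifts in the rise of the p53 targets was not tested.

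The number of calls moved with the scaling. With normexp background correction 15 of the 24 genes were called higher and 1 lower, with Bax, Bbc3, Aen and Gdf15 gained and Rrm2b lost. Calls rose over all 11344 genes too, to 1398 higher and 2645 lower, from 1027 and 1283. The median difference of the p53 targets was 0.48, against -0.10 for all genes. Scaled to the spike-in controls, 23 genes were called higher and none lower, at a median of 1.31, but on that scale all genes had a median of 0.72 and 78.8% of genes (8937) were called higher against 1.67% (190) lower. That scaling adds nearly the same shift to every gene, so it cannot test where the p53 targets stood relative to the median gene.

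**Figure D4:**
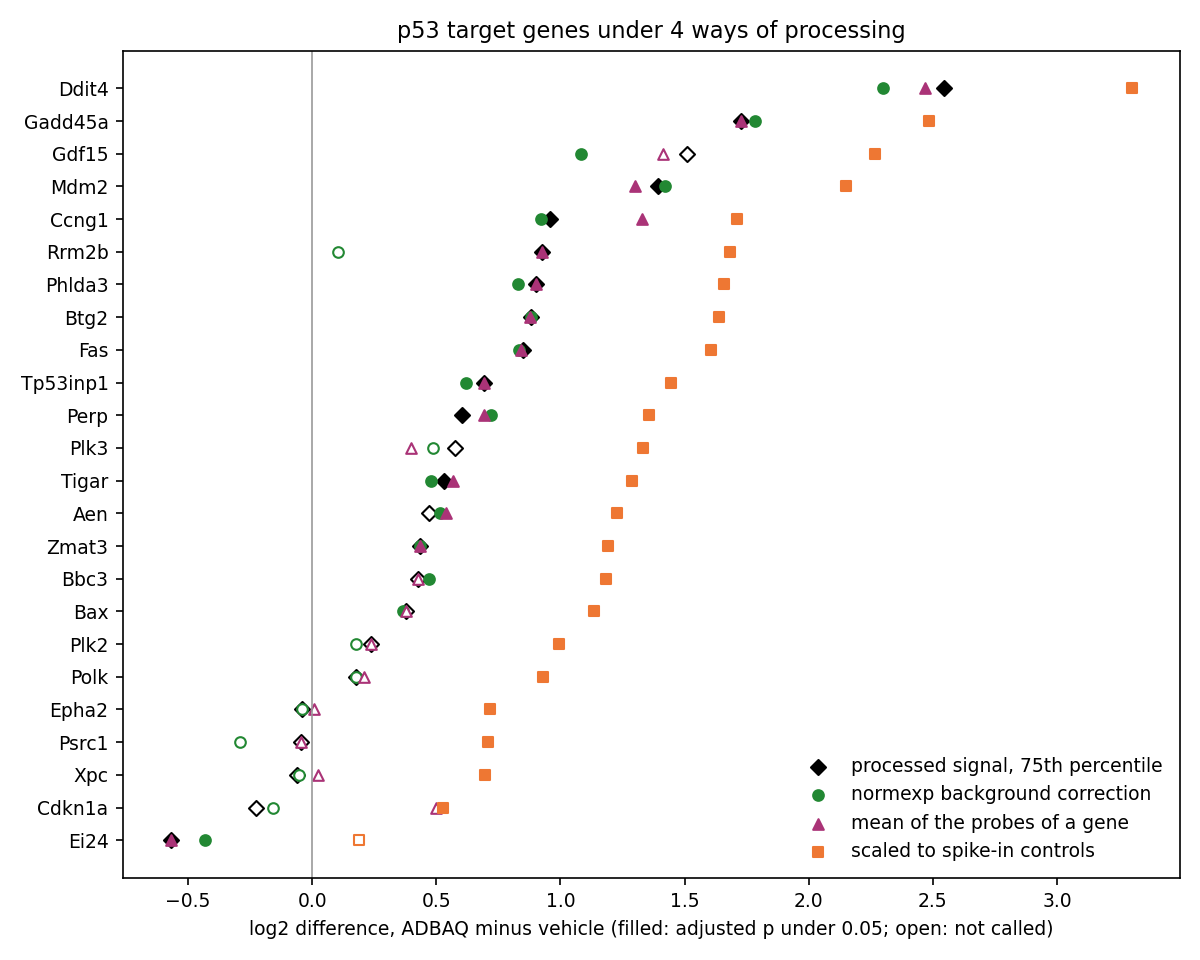
Log2 difference of each tested p53 target under 4 ways of processing, filled where the adjusted p was under 0.05 and open where it was not. Scaling to the spike-in controls shifts every gene to the right by nearly the same amount, Rrm2b drops to 0.10 with normexp background correction, and Cdkn1a changes sign from -0.23 to 0.50 with the mean of its probes.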

How the data were processed

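Liver RNA of 6 rats, 3 per group by the treatment label, was read on 1-colour Agilent arrays with Agilent Feature Extraction 10.7.1.1 and a design built on rn4, per the file headers. Processed signal, median spot signal and median background are linear intensity values in the deposited arrays, and the spot flags are of the kind other, per the file headers. The authors' series table is a ratio, the processed signal over the array's 75th percentile, as found by setting it against the scanner values. It is linear with no centring of genes. Medians per column ran from 0.0967 to 0.0982 in vehicle and from 0.0929 to 0.0971 in ADBAQ.

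Probes were named through RefSeq accessions with RefSeq's GRCr8 gene table (27460 of 61657 probes). The table served for names only, and no probe positions are given, since the builds differ. Promoter positions are those of RefSeq's GRCr8 promoter table. Outlier spots, 0 to 2 on each array, were removed. The processed signal was divided by the array's 75th percentile (433 to 643) and log2 taken. A probe was kept if all 3 arrays of a group had it well above background, and the brightest probe stood for a gene. The comparison used lmFit and eBayes of limma 3.58.1 (R 4.3.3), with Benjamini-Hochberg adjustment over the 38695 probes kept and a threshold of 0.05, and the SE is that of eBayes. For a gene below background in 1 group, the fold is a bound against the lowest signal well above background. The procedure was tested on simulated data.

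Named are all 29 genes, with values per rat for called genes, Cdkn1a and genes whose probes disagree, and up to 4 called genes per direction of each further list. Plain values per rat are also given for Bax, Bbc3 and Gdf15, chosen after they were seen. The genes and lists, the roles among them, and the alternatives were chosen with earlier results of these data known. The alternatives were normexp background correction (on the median spot signal, as the mean is not in the files), other scalings, other filters, the series table, other eBayes settings, a replicate block, the mean of probes and leaving out each array. Rats were separate animals per the labels. Single-gene results for 2 genes of the further lists are not reported here.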

Additional observations from a re-analysis of the deposited data

How the results depend on the processing

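Without 1 array, the p53 targets called higher numbered 5 to 10 (12 with all arrays), their probes 11 to 17 (21), all genes called higher 400 to 704 (1027) and all genes called lower 507 to 843 (1283). Fewer arrays were fitted in these. Scaled to the spike-in controls, 23 p53 targets and 41 of their probes were called higher and 0 of each lower, at a median of 1.31, with 8937 genes higher and 190 lower, because that scaling adds nearly the same shift to every gene. With normexp background correction the median was 0.48, 2 probes of p53 targets were lower and 2645 genes were lower. With no filter on dim probes, 2 p53 targets (Ei24 and Pmaip1, the latter below background), 3 probes and 2377 genes were called lower. In these last 2 settings the cause was not tested. The labels give separate animals, and the replicate numbers were not taken as pairs. Deviations of same-numbered arrays correlated between -0.029 and -0.005 over 3 pairs, and those of differently numbered arrays between -0.045 and 0.064. So few arrays cannot decide whether rats were paired. With the replicate number as a block anyway, 6 p53 targets and 12 of their probes were called higher and 0 of each lower, with 428 genes higher and 555 lower. A slide block was not run, because each slide held 1 group.

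Signs turned in these cases. Scaled to the spike-in controls, the differences were 0.53 for Cdkn1a, 0.71 for Psrc1, 0.19 for Ei24, 0.70 for Xpc and 0.72 for Epha2. With the mean of probes they were 0.50 for Cdkn1a, 0.025 for Xpc and 0.0079 for Epha2, and with array weights 0.0073 for Psrc1. Without 1 array, Psrc1 ran from -0.21 to 0.19, Xpc from -0.10 to 0.0097 and Epha2 from -0.12 to 0.10. Of these 5 genes only Ei24 was called with all arrays. Dim probes, such as those of Rrm2b and Psrc1, limit what can be said of low genes.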
